A study of Mus musculus with 9 samples.

Results

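The genes described here encode 10 enzymes of glycolysis: Gpi1, Pfkl, Aldoa, Tpi1, Gapdh, Pgk1, Pgam1, Eno1, Pkm and Ldha. They were chosen by name, with earlier results of these data known, and so were the other gene lists. Their counts, set below beside those of all tested genes, are therefore descriptions only. All 10 were found among the 20087 named genes of the expression table, and all passed the filter on low values that 13343 genes passed. Each was expressed well above that filter in all 9 libraries. Mouse B6D2F1 embryos were injected as zygotes with 1 of 3 siRNA preparations, which are short double-stranded RNAs that lower a chosen messenger RNA. The groups were nonspecific control siRNA (NC), siRNA against Hdac1 and Hdac2 (Hdac1/2 cKD, both genes lowered in the same embryos) and siRNA against Sin3a (Sin3a KD), and the genotype is given as wild type. Embryos were collected at E2.75, the morula stage, and polyadenylated RNA of 60 pooled embryos made up each of 3 libraries per group. Hdac1 and Hdac2 are histone deacetylases and Sin3a is the scaffold of a repressor complex that holds them. All cells of an embryo were pooled, so fewer cells of a type and less RNA per cell cannot be told apart. Whether the libraries of a group were collected separately is not stated in the labels, so a p-value here reflects only the spread among these libraries, which may be technical.

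Glycolysis splits glucose into pyruvate in the cytoplasm, and lactate dehydrogenase then interconverts pyruvate and lactate. The early mouse embryo lives mainly on pyruvate and lactate after fertilization and takes up and breaks down more glucose as it approaches the blastocyst stage. Transcription of many glycolytic genes is known to be driven by HIF1 at the DNA core ACGTG and by MYC and related factors at the E-box CACGTG, and GC boxes (GGGCGG) bind Sp1 family factors. Several of these genes, Gapdh above all, have left many processed pseudogenes in the mouse genome, which are copies of the spliced messenger that can share most of their sequence with it.

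The promoters of 4 of the genes are shown because these genes stand for the different responses seen: Ldha and Gapdh had the largest changes after Hdac1/2 knockdown, Pgk1 changed by a middling amount in both knockdowns, and Pgam1 was lower in Sin3a KD. Each line holds the 250 bases before the first start site of the gene in RefSeq (GRCm38.p6), 5′ to 3′ on the strand of the gene. Capitals mark ACGTG and GGGCGG on either strand (CACGT and CCGCCC when read on the other), and CACGTG, which holds ACGTG, is in capitals whole.
Ldha (chr7:46845554-46845803, forward strand): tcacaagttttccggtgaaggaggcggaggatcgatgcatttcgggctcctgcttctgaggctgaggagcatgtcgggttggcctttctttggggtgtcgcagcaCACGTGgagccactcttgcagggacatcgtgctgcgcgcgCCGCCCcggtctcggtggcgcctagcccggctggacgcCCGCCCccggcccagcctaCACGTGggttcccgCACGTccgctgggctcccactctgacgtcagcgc
Gapdh (chr6:125165774-125166023, reverse strand): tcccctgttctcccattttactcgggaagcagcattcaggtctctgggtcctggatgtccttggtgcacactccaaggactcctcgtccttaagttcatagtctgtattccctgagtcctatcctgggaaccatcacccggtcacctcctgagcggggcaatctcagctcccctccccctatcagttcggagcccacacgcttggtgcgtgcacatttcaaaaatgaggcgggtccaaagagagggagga
Pgk1 (chrX:106186850-106187099, forward strand): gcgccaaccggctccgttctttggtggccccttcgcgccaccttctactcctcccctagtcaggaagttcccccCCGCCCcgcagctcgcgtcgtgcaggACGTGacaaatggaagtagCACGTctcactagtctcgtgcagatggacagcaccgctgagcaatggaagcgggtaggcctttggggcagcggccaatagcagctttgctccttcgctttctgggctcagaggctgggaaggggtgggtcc
Pgam1 (chr19:41911621-41911870, forward strand): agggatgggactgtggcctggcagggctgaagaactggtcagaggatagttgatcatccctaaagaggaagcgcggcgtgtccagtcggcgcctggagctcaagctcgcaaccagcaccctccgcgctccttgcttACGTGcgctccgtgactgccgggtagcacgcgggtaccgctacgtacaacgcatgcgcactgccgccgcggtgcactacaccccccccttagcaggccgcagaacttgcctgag
The Ldha window held 3 ACGTG matches, at 145, 48 and 34 bases before the start, of which the first 2 lay within CACGTG, and 2 GGGCGG matches. Pgk1 had 2 ACGTG matches and 1 GGGCGG match, and Pgam1 had 1 ACGTG match. None of these letters was found in the Gapdh window. Among the windows of the same length at 32851 start sites, 16.6% held ACGTG, 6.02% held CACGTG and 32.7% held GGGCGG. Among the genes not printed, Tpi1, Eno1, Gpi1 and Pfkl, all higher in Hdac1/2 cKD, had 0 ACGTG matches at every start site in RefSeq. Aldoa, called in neither knockdown against NC, had 1 ACGTG and 2 GGGCGG matches at a later start site (chr7:126799254). Pkm had 1 ACGTG match at a later start site (chr9:59657227). At a further start site of Ldha (chr7:46847082) none of these letters was found. A match of this kind is a description of the sequence only.

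A stretch of the Gapdh coding sequence is shown beside the processed pseudogene Gm13394 (chr2:28933610-28934609, reverse strand). It is shown because every stretch of 31 bases in this coding sequence also occurs in another gene. The untranslated parts were not searched. Both lines run from position 316 to 375, counted from the first base of the start codon, and the capital marks position 346.
Gapdh: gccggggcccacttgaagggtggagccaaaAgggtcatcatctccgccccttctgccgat
Gm13394: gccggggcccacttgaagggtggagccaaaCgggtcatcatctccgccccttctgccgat
This change, A346C (Gapdh has the first base and the pseudogene the second), was the only difference in the 999 bases of coding sequence. Another Gapdh pseudogene, Gm7336 (chr7:51746647-51747878, forward strand), had 0 differences.

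The summed values were between 11.9 M and 13.5 M per library, and the sequencing depth estimated from the steps between low values was 8.44 M to 16.9 M reads. This estimate is rough, since only 55.1% to 68.2% of low values per library lay near a whole step. NC replicate 3 had the lowest estimated depth, 28.4% of genes at 0, and stood apart on the first principal component at -96.6, against -16.8 and -20.7 for NC replicates 1 and 2. Among the targeted genes, Hdac1 ranged from 4925 to 6245 normalised counts in the controls, from 769.6 to 1052 after Hdac1/2 knockdown and from 1333 to 2597 after Sin3a knockdown, so it was lower there as well. Hdac2 ranged from 2020.3 to 2492 in the controls, from 193 to 371 after Hdac1/2 knockdown and from 2008 to 2136 after Sin3a knockdown. Sin3a ranged from 1215 to 1779 in the controls, from 1903 to 2239.7 after Hdac1/2 knockdown and from 354 to 520.1 after Sin3a knockdown. Of 14 preimplantation embryo markers, all 14 passed the filter on low values. Their summed level lay between 50653 and 56854 in NC, between 35803 and 38586 in Hdac1/2 cKD and between 46643 and 51784 in Sin3a KD. Against NC 1 was higher and 9 lower in Hdac1/2 cKD, where 7.81% and 7.80% of all tested genes were called. In Sin3a KD 0 were higher and 4 lower, against 3.60% and 4.36% of all tested genes. The part of these markers in the results on glycolytic genes was not tested. The summed level per library was 235 to 359.6 for oocyte markers and 4.66 to 89.9 for sperm and testis markers, and NC overlapped each knockdown in both. For cumulus and granulosa markers NC spanned 26.4 to 43.6. Both knockdowns lay above it, Hdac1/2 cKD at 62.6 to 84.9, Sin3a KD at 67.1 to 71.7. For blood and immune markers NC spanned 67.3 to 107.5. Hdac1/2 cKD lay above it at 129 to 176, while Sin3a KD overlapped it at 65.1 to 94.5. What these markers contribute to the results on glycolytic genes was not tested. Of these 40 markers 15 passed the filter (8 of 10, 2 of 10, 3 of 10 and 2 of 10 in that order of lists). Against NC limma called none of the 15, with an unadjusted p below 0.05 for 2 in Hdac1/2 cKD and 1 in Sin3a KD. With the shares of all tested genes given above, few calls are expected among 15 genes. NC libraries were sequenced on lanes 5, 2 and 3, Hdac1/2 cKD on lanes 2, 2 and 3, and Sin3a KD on lanes 4, 3 and 3.

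Hdac1/2 knockdown was compared with control embryos to ask how glycolytic genes respond when both deacetylases are lowered. Of the 10 enzymes, 8 rose (Ldha, Gapdh, Tpi1, Pgk1, Eno1, Pfkl, Gpi1 and Pkm), none fell (0 also at an unadjusted p below 0.05), and Pgam1 and Aldoa were not called. Over all tested genes, 7.81% were called higher and 7.80% lower in this comparison (limma, Benjamini-Hochberg adjusted p below 0.05). The median log2 fold change was 0.93 for the 10 enzymes and 0.03 for all tested genes. In each of the 8 genes that rose, all 3 Hdac1/2 cKD libraries lay above all 3 NC libraries, which 17.1% of all tested genes also showed. The 10 enzymes together made up 0.0953% ± 0.0076 of the summed values in NC (SD, n = 3), 0.173% ± 0.012 in Hdac1/2 cKD and 0.110% ± 0.003 in Sin3a KD. With the libraries scaled to equal totals, the median of all genes moved from 0.03 to 0.15 and the calls among all genes shifted to 1386 higher and 675 lower, from 1042 and 1041, while 8 of the 10 enzymes were again higher.

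Sin3a knockdown was compared with the same NC libraries, so the 2 comparisons are not independent. In it 6 of the 10 enzymes rose (Tpi1, Pfkl, Ldha, Pkm, Pgk1 and Gpi1), Pgam1 fell, and Gapdh, Eno1 and Aldoa were not called. Over all tested genes, 3.60% were called higher and 4.36% lower. The median log2 fold change was 0.64 for the 10 enzymes and 0.03 for all tested genes. In the 6 genes that rose, the Sin3a KD libraries lay above all NC libraries, as in 13.9% of all tested genes. Scaling to equal totals changed the calls among all genes to 741 higher and 425 lower, from 480 and 582, and left 6 of the enzymes higher and 1 lower. The calls depended on the settings. No enzyme was called, higher or lower, when variances were moderated with neither trend nor robust fitting. The same held when NC replicate 1 and Sin3a KD replicate 1, each alone on its lane, were left out. In both settings 6 were higher and 1 lower at an unadjusted limma p below 0.05. With lane as a factor 1 (Pfkl) was called, and 2 were called higher without Sin3a KD replicate 3. Calls over all tested genes fell in these settings too, from 480 higher and 582 lower. They were 17 and 19, 25 and 24, 61 and 33, and 122 and 215, in the same order.

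**Figure D1:**
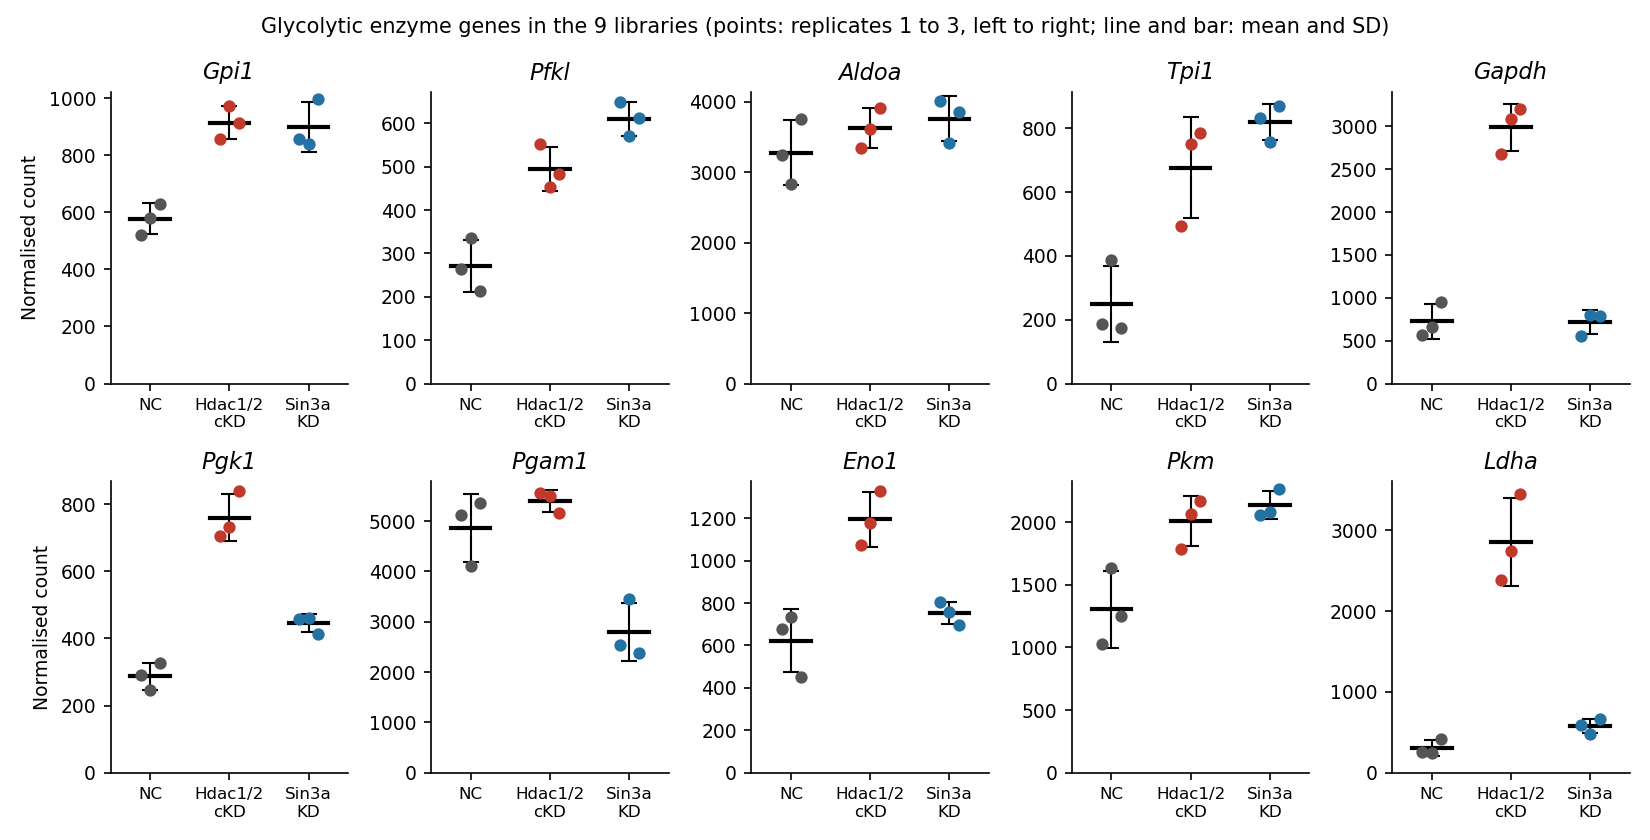
Normalised counts of the 10 enzyme genes in each library, in the order of the pathway, each panel with its own axis from 0. Points are libraries, lines and bars the mean and SD of 3; Ldha and Gapdh stand far above NC in all Hdac1/2 cKD libraries, and Pgam1 is low in all Sin3a KD libraries.

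The first enzymes of the set act on hexose phosphates. Gpi1 (chr7:34201330-34230336, reverse strand), glucose-6-phosphate isomerase, had normalised counts of 522, 580.5 and 629.6 in NC replicates 1 to 3, 858, 972 and 913 in Hdac1/2 cKD, and 858, 839 and 998 in Sin3a KD. Both knockdowns lay above every control library and overlapped each other. Against NC the log2 fold change was 0.66 (SE 0.13, adjusted p = 0.00457) in Hdac1/2 cKD and 0.64 (SE 0.13, adjusted p = 0.0124) in Sin3a KD by limma, the latter not called without Sin3a KD replicate 3 (adjusted p = 0.0647). Pfkl (chr10:77986947-78010083, reverse strand), the liver-type subunit of phosphofructokinase, which catalyses the committed and most regulated step, had values of 265, 334 and 214 in NC, 552, 453 and 482 in Hdac1/2 cKD, and 649.97, 572 and 612 in Sin3a KD. The 3 groups did not overlap, with Sin3a KD the highest. Its log2 fold change was 0.89 (SE 0.18, adjusted p = 0.00502) in Hdac1/2 cKD and 1.19 (SE 0.18, adjusted p = 0.00347) in Sin3a KD. The difference between the knockdowns, -0.30 (95% interval -0.69 to 0.08, adjusted p = 0.284), was not called.

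Aldoa (chr7:126795234-126800751, reverse strand), the aldolase that splits fructose-1,6-bisphosphate into triose phosphates, had values of 3241, 2829.5 and 3756 in NC, 3346, 3609 and 3915 in Hdac1/2 cKD, and 4014, 3410.4 and 3855 in Sin3a KD. The 3 groups overlapped. Its log2 fold change was 0.15 (95% interval -0.10 to 0.40, adjusted p = 0.421) in Hdac1/2 cKD and 0.21 (-0.05 to 0.46, adjusted p = 0.308) in Sin3a KD. Tpi1 (chr6:124810586-124814296, reverse strand), triosephosphate isomerase, had values of 187, 387 and 175 in NC, 494, 752 and 786 in Hdac1/2 cKD, and 833, 759 and 869 in Sin3a KD. NC replicate 2 was high within its group and still below every knockdown library. The log2 fold change of Tpi1 was 1.51 (SE 0.27, adjusted p = 0.00296) in Hdac1/2 cKD and 1.81 (SE 0.27, adjusted p = 0.00355) in Sin3a KD, the largest rise of the 10 genes in that knockdown.

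Gapdh (chr6:125161715-125166467, reverse strand), glyceraldehyde-3-phosphate dehydrogenase, carries out the oxidation step that makes NADH and is widely used as a reference gene in PCR assays. Its values were 564, 664 and 956 in NC, 2682, 3081 and 3206 in Hdac1/2 cKD, and 558, 805 and 789 in Sin3a KD. The Hdac1/2 cKD libraries were all far above the rest, and NC and Sin3a KD overlapped. Against NC the log2 fold change was 2.07 (SE 0.19, adjusted p = 2.56e-05) in Hdac1/2 cKD, 4.11 times the NC mean, and -0.00 (95% interval -0.42 to 0.41, adjusted p = 0.990) in Sin3a KD. Pgk1 (chrX:106187100-106203699, forward strand), phosphoglycerate kinase, makes the first ATP of the pathway. It had values of 289.8, 247 and 326 in NC, 706, 732 and 838 in Hdac1/2 cKD, and 459, 462 and 414 in Sin3a KD. The 3 groups stood in separate ranges with Sin3a KD in between. The log2 fold change of Pgk1 was 1.40 (SE 0.16, adjusted p = 0.000103) in Hdac1/2 cKD and 0.64 (SE 0.16, adjusted p = 0.0271) in Sin3a KD. The call of Pgk1 in Sin3a KD was lost in 8 of 20 alternatives, among them the fit of only NC and Sin3a KD (adjusted p = 0.0722) and those without NC replicate 1 (0.0603) or without Sin3a KD replicate 1 (0.101), 2 (0.0682) or 3 (0.0643).

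Pgam1 (chr19:41911923-41918660, forward strand), phosphoglycerate mutase, which moves the phosphate of 3-phosphoglycerate, had values of 5122, 4101 and 5363 in NC, 5563, 5494 and 5154 in Hdac1/2 cKD, and 2547, 3454 and 2386 in Sin3a KD. All Sin3a KD libraries lay below all NC libraries, as in 13.3% of all tested genes, and NC and Hdac1/2 cKD overlapped. In Sin3a KD Pgam1 fell by 0.81 on the log2 scale (SE 0.14, adjusted p = 0.00542), to 57.5% of the NC mean, and in Hdac1/2 cKD its log2 fold change was 0.16 (95% interval -0.14 to 0.46, adjusted p = 0.478). Eno1 (chr4:150236721-150248879, forward strand), the alpha enolase that forms phosphoenolpyruvate, had values of 678, 736 and 453 in NC, 1074, 1178 and 1330.4 in Hdac1/2 cKD, and 803, 759.5 and 699 in Sin3a KD. Every Hdac1/2 cKD library was above all others, and the lowest Sin3a KD library fell within the NC range. The log2 fold change of Eno1 was 0.96 (SE 0.17, adjusted p = 0.00246) in Hdac1/2 cKD and 0.30 (95% interval -0.07 to 0.68, adjusted p = 0.308) in Sin3a KD.

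Pkm (chr9:59656368-59679375, forward strand) encodes the M1 and M2 forms of pyruvate kinase, which the gene-level values do not separate. It had values of 1029, 1636 and 1249 in NC, 1788, 2063 and 2171 in Hdac1/2 cKD, and 2059, 2083 and 2262 in Sin3a KD. Both knockdowns were above NC, with the lowest Hdac1/2 cKD library close to NC replicate 2. For Pkm the log2 fold change was 0.64 (SE 0.15, adjusted p = 0.0107) in Hdac1/2 cKD and 0.73 (SE 0.15, adjusted p = 0.0110) in Sin3a KD. Without Hdac1/2 cKD replicate 3 the adjusted p in that knockdown became 0.05004, and with lane as a factor it became 0.0676. In Sin3a KD the call of Pkm was lost without Sin3a KD replicate 3 (adjusted p = 0.0570).

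Ldha (chr7:46841475-46855627, forward strand), the lactate dehydrogenase subunit that favours making lactate from pyruvate, changed more than any of the other 9 genes in Hdac1/2 cKD. Its values were 256, 246 and 418 in NC, 2380.1, 2739 and 3444 in Hdac1/2 cKD, and 589.5, 484 and 659.7 in Sin3a KD. The groups did not overlap, and even the lowest Hdac1/2 cKD library was several times the highest of the other 6. The mean in Hdac1/2 cKD was 9.31 times that in NC, a log2 fold change of 3.24 (95% interval 2.79 to 3.69, adjusted p = 2.52e-06), and 0.757% of all tested genes had a higher one. In Sin3a KD the log2 fold change of Ldha was 0.94 (SE 0.21, adjusted p = 0.0164). That call was lost without NC replicate 1 (adjusted p = 0.0611), without Sin3a KD replicate 1 (0.0676) and without Sin3a KD replicate 3 (0.0796).

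Without NC replicate 3, the library that stood apart, the same 8 genes were higher in Hdac1/2 cKD and the same calls held in Sin3a KD, 6 higher and 1 lower. The log2 fold changes in Hdac1/2 cKD were then 3.49 for Ldha, 2.28 for Gapdh, 1.498 for Pgk1, 1.299 for Tpi1 and 0.75 for Eno1. Within lane 2, which held 2 Hdac1/2 cKD libraries and 1 NC library, the log2 difference was 3.37 for Ldha, 2.11 for Gapdh and 1.54 for Pgk1. Within lane 3, with 1 library of each, it was 3.04, 1.74 and 1.36 for the same genes. The 5 other genes that rose were also higher within both lanes, but less evenly. Tpi1 differed by 0.66 in lane 2 and 2.16 in lane 3, Eno1 by 0.61 and 1.55, Pfkl by 0.58 and 1.17, Pkm by 0.23 and 0.80, and Gpi1 by 0.65 and 0.53. In lane 3 the difference of the Sin3a KD libraries from NC was 2.21 for Tpi1, 1.46 for Pfkl, 0.80 for Pkm and 0.54 for Gpi1. It was 0.44 for Ldha, 0.42 for Pgk1 and -0.90 for Pgam1. For the uncalled genes it was 0.68 for Eno1, -0.26 for Gapdh and -0.05 for Aldoa. Every difference from NC within lane 3 rests on NC replicate 3, the only NC library there and the one that stood apart.

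The knockdowns were also compared with each other directly, to see which enzyme genes differed between lowering the deacetylases and lowering their scaffold. Hdac1 was also lower in Sin3a KD, with a mean of 1910 against 5569 in NC, so the comparison does not separate them fully. Ldha (log2 difference 2.30, SE 0.21, adjusted p = 1.91e-05), Gapdh (2.07, SE 0.19, adjusted p = 2.18e-05), Pgam1 (0.97, SE 0.14, adjusted p = 0.000457), Pgk1 (0.77, SE 0.16, adjusted p = 0.00485) and Eno1 (0.66, SE 0.17, adjusted p = 0.0181) were higher in Hdac1/2 cKD than in Sin3a KD by limma. Over all tested genes 8.49% were called higher, and in 20.4% all Hdac1/2 cKD libraries lay above all Sin3a KD libraries, as they did in these 5. None of the 10 was called lower (0 also at an unadjusted p below 0.05), against 8.78% of all genes; Pfkl alone lay lower in every Hdac1/2 cKD library, an order that 19.3% of all genes had. The log2 difference of the other 5 was -0.30 for Tpi1 (95% interval -0.89 to 0.29), -0.30 for Pfkl, -0.09 for Pkm (-0.41 to 0.23), -0.05 for Aldoa (-0.30 to 0.20) and 0.03 for Gpi1 (-0.26 to 0.31). The difference of Eno1 was no longer called without Hdac1/2 cKD replicate 2 (adjusted p = 0.0544), without Hdac1/2 cKD replicate 3 (0.0758) and without Sin3a KD replicate 3 (0.0680).

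**Figure D2:**
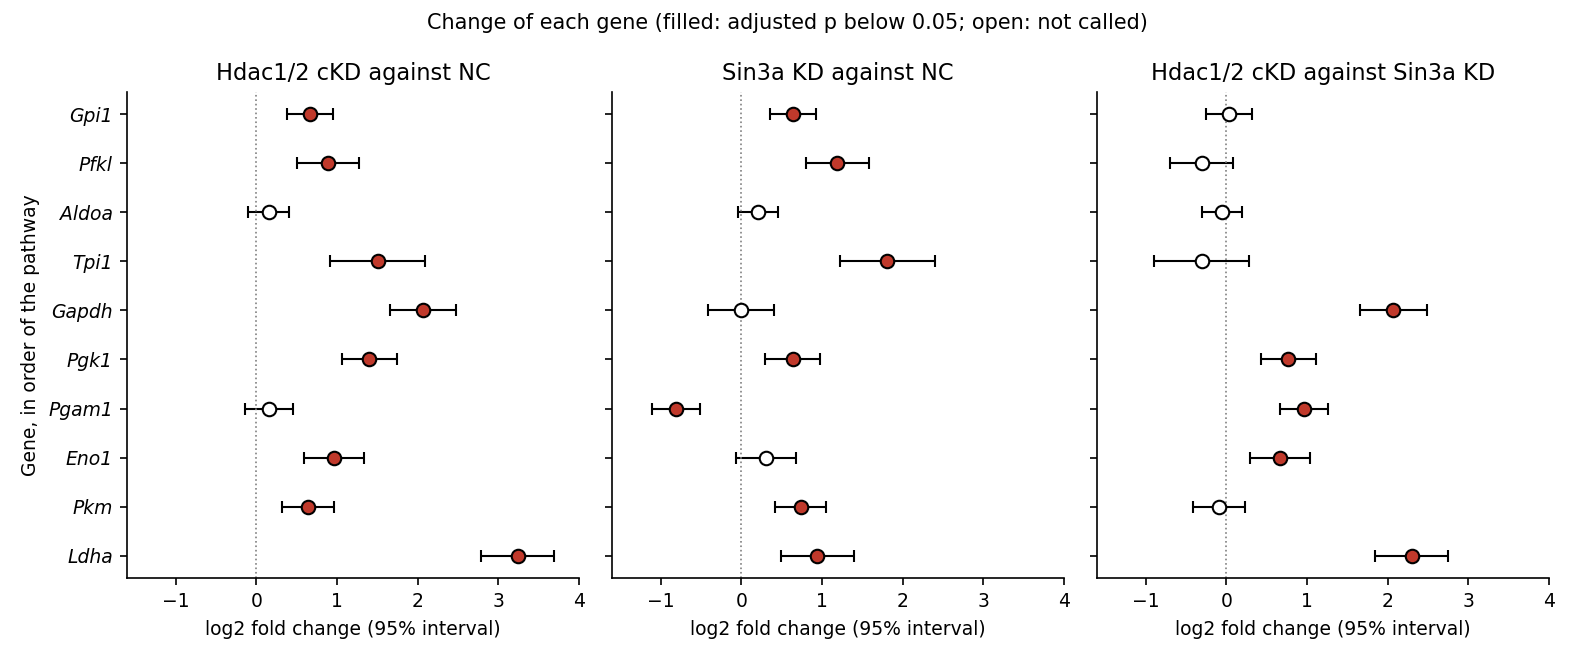
Log2 fold change of each enzyme gene with its 95% interval from limma, with a panel for each knockdown against NC and one for the difference between the knockdowns. Filled points have an adjusted p below 0.05; 8, 7 and 5 of the 10 are filled, and Pgam1 in Sin3a KD against NC is the filled point below 0.

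Levels of different genes were compared per kb of 1 coding transcript of each, since longer transcripts yield more reads. This was the transcript that the APPRIS annotation of main isoforms ranked best, and the longest of them where several tied. In NC the highest were Pgam1 at 2739 ± 377 per kb (SD, n = 3) and Aldoa at 2168 ± 307, whose libraries overlapped. Pkm (536 ± 126) and Gapdh (513 ± 144) followed and also overlapped, then Eno1 at 307 ± 74. Gpi1, Ldha, Pgk1 and Tpi1 lay between 155 and 200.2 per kb, each overlapping its neighbour in that order, and Pfkl was lowest at 72.6 ± 16.3. In Hdac1/2 cKD the order changed: Gapdh (2105 ± 193) and Ldha (1616 ± 306) came directly after Pgam1 (3044 ± 123) and Aldoa (2398 ± 189), and Ldha ranked 4 of 10, against 7 of 10 in NC. Gapdh overlapped both Aldoa and Ldha there, while every Ldha library was above the highest Pkm library, at 893. In Sin3a KD Aldoa (2488 ± 207) was above Pgam1 (1575 ± 325) in every library, Pkm came next at 878 ± 46, and Tpi1 (511 ± 35) ranked 4, against 9 in NC, overlapping Gapdh (505 ± 97). These ranks use only the line of each gene itself, and that of Gapdh depends on this. With its listed copies, described next, added and the sum divided by the length of Gapdh, it stood at 839 ± 245 per kb in NC, above Pkm in every library. In Hdac1/2 cKD the sum was 3553 ± 621, ranking 1 of 10 in the mean and overlapping Pgam1, and in Sin3a KD it was 894 ± 172, overlapping Pkm and above Tpi1. Pgam1 and Aldoa together made up 65.0% ± 5.3 of the summed values of the 10 genes in NC, 43.3% ± 2.5 in Hdac1/2 cKD and 48.5% ± 2.2 in Sin3a KD.

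Near-identical copies were searched for in the GENCODE transcripts, taking as a copy a gene that matched at least 50% of the coding sequence at 90% identity or more. It also had to be annotated as a pseudogene, be a listed isozyme or relative, or have a name made of Gm and a number. In all 200 were found for 9 of the 10 enzymes, of which 192 were annotated pseudogenes, and only Pfkl had none. Gapdh had 163 of them, Ldha 12, Eno1 7, Aldoa 6, Pkm 5, Pgam1 3, Pgk1 2, and Tpi1 and Gpi1 1 each. Of these, 59 copies of 7 enzymes were listed with values of their own, 50 of them copies of Gapdh, while none of the 12 copies of Ldha had one. Every stretch of 31 bases in the Gapdh, Pgk1 and Pgam1 coding sequences also occurred in another gene, so reads from the coding part of these genes could be assigned elsewhere.

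The copies of Gapdh held a large part of its signal. Gm13394, the pseudogene printed above with a single differing base, had values of 253, 203 and 402 in NC, 1008, 1685 and 1982 in Hdac1/2 cKD, and 249, 344 and 466 in Sin3a KD. It stood high in the same 3 libraries as Gapdh itself. Its log2 fold change in Hdac1/2 cKD was 2.44 (SE 0.31, adjusted p = 0.000485), near that of Gapdh. Gm7336, identical to Gapdh over the coding sequence, had values of 87.2, 0 and 71.6 in NC, 232, 315 and 479 in Hdac1/2 cKD, and 74.8, 66.1 and 44.0 in Sin3a KD. It was high in the same group but was not called (adjusted p = 0.152). All 50 copies together held 38.9% of the summed signal of Gapdh and its copies in NC, 40.7% in Hdac1/2 cKD and 43.5% in Sin3a KD. The sum was 1192 ± 347 in NC (SD, n = 3), 5045 ± 882 in Hdac1/2 cKD and 1269.7 ± 244 in Sin3a KD. How much RNA came from each copy and how much from reads of Gapdh assigned to it cannot be told apart in these values.

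**Figure D3:**
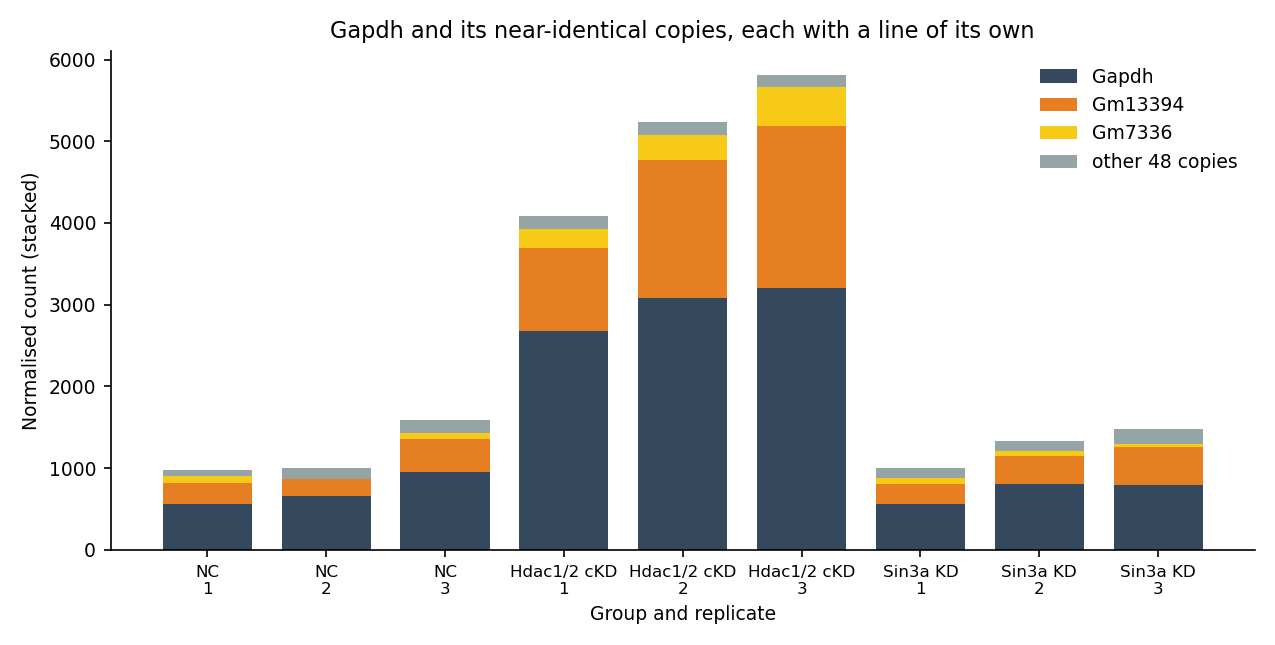
Stacked normalised counts of Gapdh, Gm13394, Gm7336 and the other 48 copies listed in the table, by library. The 3 Hdac1/2 cKD libraries are the highest for Gapdh, Gm13394 and Gm7336.

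For the other enzymes the copies carried less. The copies of Eno1 in the table, the pseudogene Gm4735 and the enolase gene Eno1b, held 19.1% of the summed signal in NC, 21.4% in Hdac1/2 cKD and 21.0% in Sin3a KD. Copies of Pgk1 held 7.24%, 0.309% and 4.77% of the sum with Pgk1 in the same order of groups, though Gm5537 and Pgk1-rs7 matched its coding sequence without a difference. Copies of Pgam1 held 2.34%, 1.47% and 3.49%. For Gpi1, Pkm and Aldoa the highest group mean was 1.29%. With each enzyme summed with its listed copies, the same numbers were called in all 3 comparisons, and the log2 fold change of Gapdh in Sin3a KD, uncalled in both cases, went from -0.00 to 0.11.

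Glycolytic steps are often served by isozymes, separate genes for the same reaction that differ in tissue and regulation. The 12 tested isozymes and relatives of the 10 enzymes had a median log2 fold change of 0.28 in Hdac1/2 cKD. Of the 12, 3 rose (25.0%) and none fell (0 also at an unadjusted limma p below 0.05), against 7.81% and 7.80% of all tested genes. All 3 were enolases: Eno2, the neuronal gamma enolase (1.83, SE 0.27, adjusted p = 0.00103), Eno3, the muscle beta enolase (1.38, SE 0.35, adjusted p = 0.0163), and Eno1b (1.06, SE 0.33, adjusted p = 0.0482). Eno1b is not a separate observation from Eno1, since it was 99.4% identical to the Eno1 coding sequence and shared 86.9% of its stretches of 31 bases, and how many of its reads came from Eno1 cannot be told apart in these values. Eno2 had values of 197, 393 and 433 in NC, 1227, 1119.6 and 1098 in Hdac1/2 cKD, and 648, 653 and 1043 in Sin3a KD, above NC in every knockdown library. In Sin3a KD 1 of the 12 rose and 1 fell, against 3.60% and 4.36% of all genes. There Eno2 rose (1.24, SE 0.27, adjusted p = 0.0179), and Pklr, the liver and red cell pyruvate kinase, fell by 2.07 on the log2 scale (SE 0.38, adjusted p = 0.00770), from 116, 74.1 and 175 in NC to 35.3, 17.5 and 29.7. The test called none of Pfkp, Pfkm, Gapdhs, Pgam2, Bpgm and Ldhb, nor Pgam5, which is named like the mutases but is a mitochondrial protein phosphatase, in either knockdown against NC. Of these, Pfkm, the muscle phosphofructokinase, had the largest log2 difference in Hdac1/2 cKD at 1.40 (SE 0.49, adjusted p = 0.0714), with values of 10.7 to 35.2 in NC and 50.01 to 71.1 in Hdac1/2 cKD.

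Among lactate dehydrogenase subunits, Ldhb, which favours oxidizing lactate to pyruvate, had values of 72.3, 69.2 and 120.2 in NC, 75.1, 61.5 and 64.9 in Hdac1/2 cKD, and 94.9, 62.3 and 71.4 in Sin3a KD. The groups overlapped, and the log2 fold change in Hdac1/2 cKD was -0.33 (95% interval -1.03 to 0.37). Per kb, Ldha made up 71.8% ± 0.7 of the lactate dehydrogenase level in NC (SD, n = 3), 96.8% ± 0.8 in Hdac1/2 cKD and 84.6% ± 3.0 in Sin3a KD, and the 3 ranges did not overlap. Eno1 made up 57.8% ± 10.7 of the enolase level in NC and 48.0% ± 1.1 in Hdac1/2 cKD, ranges that overlapped, with Eno2 second in the mean of each group; the part given to Eno1b here may hold reads of Eno1. Pfkl held 68.4% ± 9.2 of phosphofructokinase in NC, 74.0% ± 5.0 in Hdac1/2 cKD and 85.0% ± 3.0 in Sin3a KD. Aldoa and Pgam1 held nearly all of their enzymes in every group, with lowest group means of 99.7% and 97.9%.

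**Figure D4:**
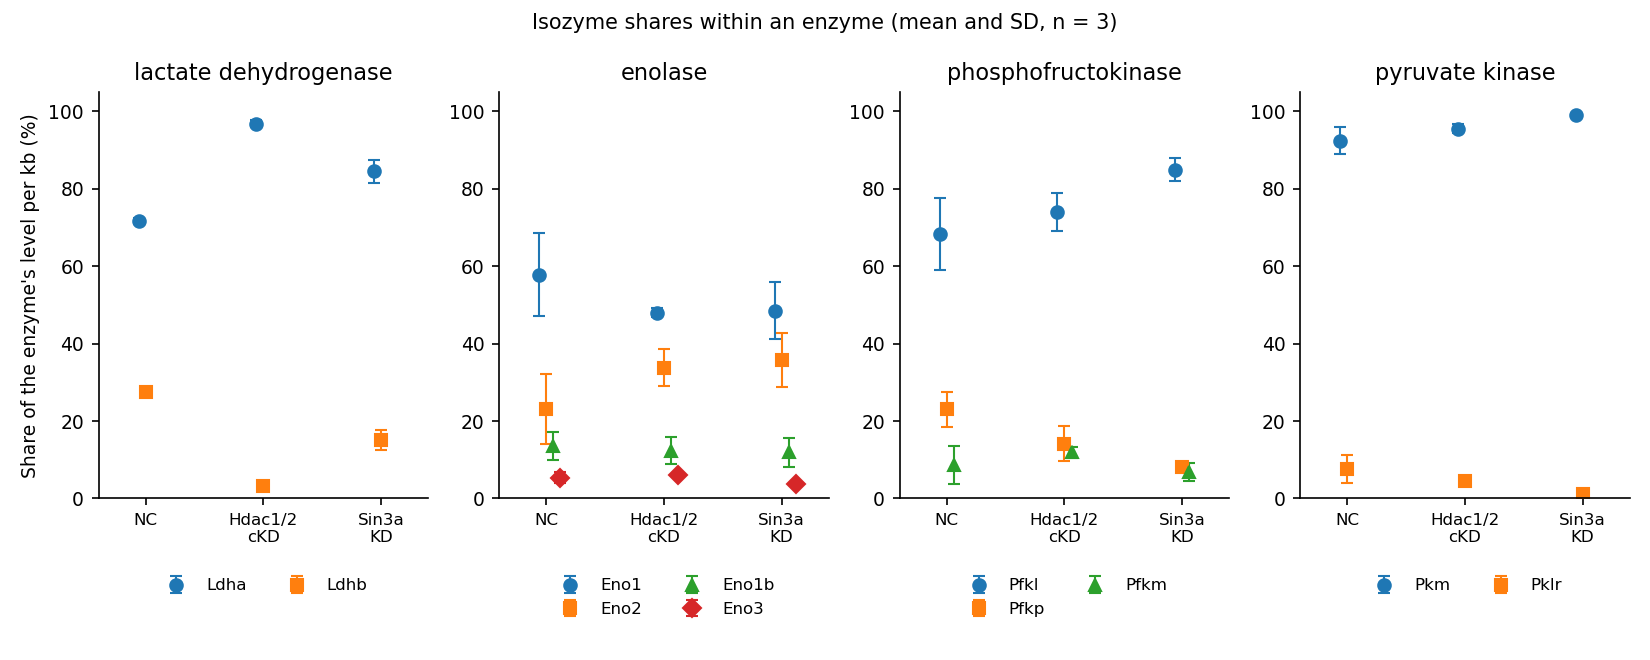
Share of each isozyme in the level per kb of its enzyme (percent, mean and SD of 3 libraries) for lactate dehydrogenase, enolase, phosphofructokinase and pyruvate kinase. Ldha goes from 71.8% in NC to 96.8% in Hdac1/2 cKD, while Eno2 takes a share second to that of Eno1 in each group.

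The genes around the pathway moved in both directions. For entry into glycolysis, 1 of 12 tested genes rose in Hdac1/2 cKD and none fell (2 were lower at an unadjusted limma p below 0.05). The 8.33% that rose is near the 7.81% of all tested genes called higher, and 7.80% of all tested genes were called lower. The gene that rose was Slc2a1, the glucose transporter GLUT1, which had values of 523, 619 and 488 in NC, 1075, 944 and 1105 in Hdac1/2 cKD, and 828, 808 and 791 in Sin3a KD. Its log2 fold change was 0.94 (SE 0.13, adjusted p = 0.000546) in Hdac1/2 cKD and 0.58 (SE 0.13, adjusted p = 0.0193) in Sin3a KD. In Sin3a KD 2 of the 12 rose and 1 fell, against 3.60% and 4.36% of all genes. Outside the naming rule, and chosen after their values were seen, these were Slc2a3, the glucose transporter GLUT3 (0.98, adjusted p = 0.00953), beside Slc2a1, and Hkdc1, a hexokinase-like gene (-2.03, adjusted p = 0.0305). The list had a median log2 fold change of -0.08 in each knockdown.

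Of 8 listed gluconeogenic enzymes, which run steps of the pathway in reverse, only 2 were tested. Both fell in Hdac1/2 cKD, where 7.80% of all tested genes were called lower, so the other listed genes are not covered. Fbp2, a fructose-1,6-bisphosphatase that opposes phosphofructokinase, had values of 4043, 4343 and 4481 in NC, 1855, 2259 and 2403 in Hdac1/2 cKD, and 4159.8, 4611 and 3759 in Sin3a KD. Only the Hdac1/2 cKD libraries were low, at a log2 fold change of -0.99 (SE 0.12, adjusted p = 0.000136). G6pc3, a glucose-6-phosphatase, had a log2 fold change of -0.92 (SE 0.24, adjusted p = 0.0187). Neither was called in Sin3a KD by limma, nor had an unadjusted p below 0.05 there. In that comparison 3.60% of all tested genes were called higher and 4.36% lower.

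Of 22 genes in branches that leave glycolysis, 2 rose (9.09%) and 7 fell (31.8%) in Hdac1/2 cKD, against 7.81% and 7.80% of all tested genes, with a median log2 fold change of -0.10. Gfpt1, which opens the hexosamine pathway, went from 2013, 2040.5 and 1800.5 in NC to 1058, 945 and 984 in Hdac1/2 cKD (log2 fold change -0.97, SE 0.10, adjusted p = 7.29e-05). Rpia, ribose-5-phosphate isomerase of the pentose phosphate pathway (-0.91, SE 0.12, adjusted p = 0.000434), and Gys1, glycogen synthase (-0.98, SE 0.14, adjusted p = 0.000626), also fell. Shmt2, the mitochondrial serine hydroxymethyltransferase, rose (1.20, SE 0.23, adjusted p = 0.00340). In Sin3a KD none of the 22 rose (3 were higher at an unadjusted limma p below 0.05) and 2 fell (9.09%), against 3.60% and 4.36% of all genes. The 2 were Psat1 and Shmt1, enzymes of serine and glycine metabolism named after their values were seen (log2 fold changes -0.49 and -0.55, adjusted p = 0.0133 and 0.0213).

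Of 21 genes for the fates of pyruvate and lactate, 1 rose (4.76%) and 4 fell (19.0%) in Hdac1/2 cKD, against 7.81% and 7.80% of all tested genes, with a median of -0.11. Pdhb, a subunit of the pyruvate dehydrogenase that feeds pyruvate into the mitochondrial cycle, had values of 3546, 3609 and 3921 in NC and 2575, 2350.3 and 2403 in Hdac1/2 cKD (log2 fold change -0.60, SE 0.095, adjusted p = 0.00110). Pdp2, a phosphatase that activates the complex (-0.60, adjusted p = 0.00427), and Mpc2, a subunit of the mitochondrial pyruvate carrier (-0.47, adjusted p = 0.0314), fell as well. Bsg, the chaperone of the monocarboxylate transporters that carry lactate across the cell membrane, rose (0.49, SE 0.11, adjusted p = 0.00965). In Sin3a KD limma called none of the 21, against 3.60% of all tested genes called higher and 4.36% lower. At an unadjusted limma p below 0.05, 3 were lower and 0 higher.

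Of 19 regulators of glycolytic gene transcription, 3 rose (15.8%) and 5 fell (26.3%) in Hdac1/2 cKD, against 7.81% and 7.80% of all tested genes, with a median of -0.15. Hif1a, the oxygen-controlled subunit of HIF1, had values of 85.1, 176 and 125 in NC, 561, 559 and 506 in Hdac1/2 cKD, and 281, 307 and 411 in Sin3a KD, without overlap between groups. Its log2 fold change was 2.13 (SE 0.25, adjusted p = 0.000140) in Hdac1/2 cKD and 1.41 (SE 0.25, adjusted p = 0.00611) in Sin3a KD. Myc had values of 713, 543 and 500.1 in NC, 90.8, 113 and 65.1 in Hdac1/2 cKD, and 432, 307 and 327 in Sin3a KD, and its log2 fold change was -2.71 (SE 0.24, adjusted p = 1.58e-05) and -0.72 (SE 0.24, adjusted p = 0.0828) in the knockdowns. Foxk1, a forkhead factor known to induce glycolytic genes (1.21, adjusted p = 0.000626), and Mlxipl, the glucose-responsive factor ChREBP (1.36, adjusted p = 0.00189), rose in Hdac1/2 cKD. Outside the naming rule, the rest of the 5 that fell there beside Myc were Egln1, Esrrb, Mlx and Vhl. The mean of Mlx went from 347 in NC to 173 in Hdac1/2 cKD. In Sin3a KD 3 of the 19 rose (15.8%) and none fell (4 were lower at an unadjusted limma p below 0.05), against 3.60% and 4.36% of all genes. Those that rose were Hif1a and, named after their values were seen, Epas1, another HIF alpha subunit (0.50, adjusted p = 0.0119), and Egln3, a HIF prolyl hydroxylase (1.80, adjusted p = 0.00542). The relation of these regulators to the enzyme genes was not tested.

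**Figure D5:**
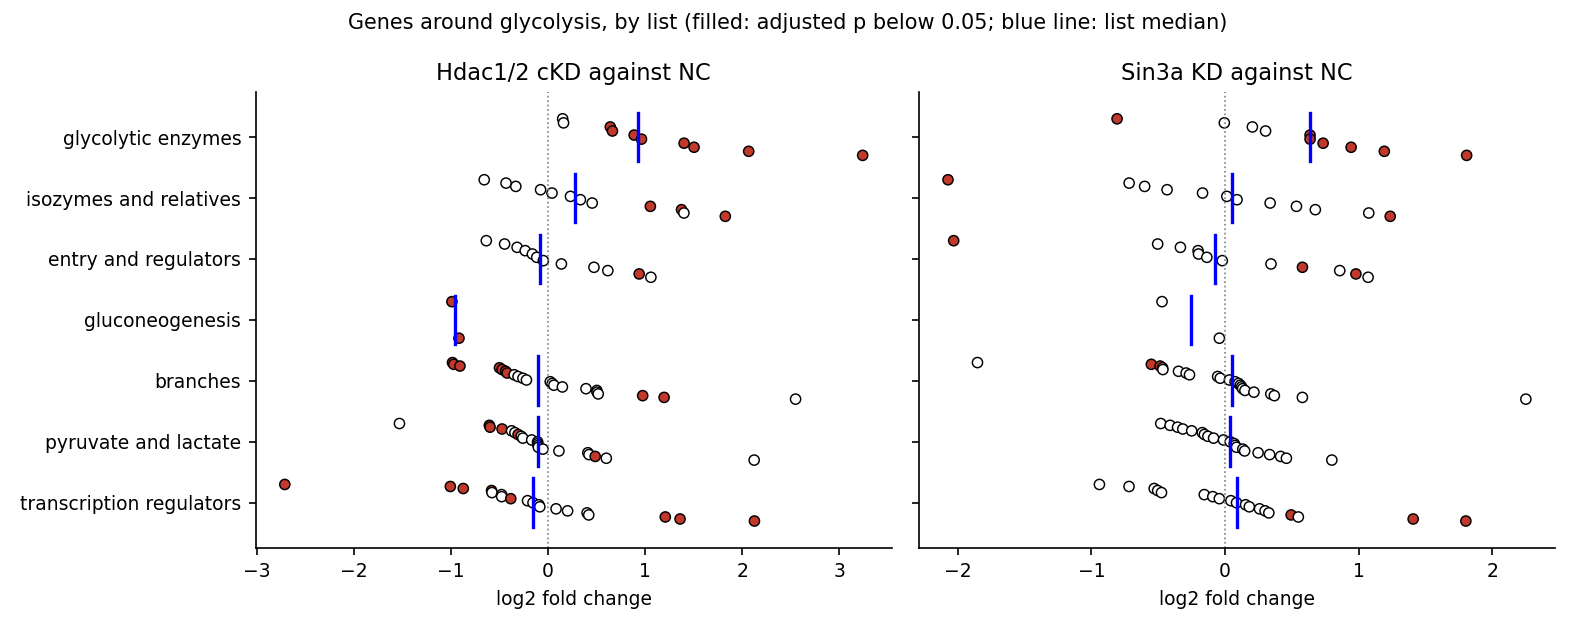
Log2 fold changes of the tested genes of 7 lists around glycolysis in Hdac1/2 cKD and Sin3a KD against NC, 1 point per gene, filled where the adjusted p was below 0.05. The blue line is the median of a list, which is 0.93 and 0.64 for the 10 glycolytic enzymes and closer to 0 or below it in the other lists.

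Among 9747 tested genes with a mean of at least 50, those whose centred log2 values over the 9 libraries lay closest to Ldha were Abracl (root mean square difference 0.30), Pgpep1 (0.30) and Ptk7 (0.38). Abracl reached the mean of 50 only through Hdac1/2 cKD, with means of 13.8 in NC, 134 in Hdac1/2 cKD and 22.9 in Sin3a KD. The means of Pgpep1 were 31.6 in NC, 257 in Hdac1/2 cKD and 63.2 in Sin3a KD. Closest to Gapdh were Nefh (0.17), H2-Q4 (0.18) and Apoe (0.20), and the means of Apoe were 262, 864 and 217 in the same order of groups. H2-Q4 also reached the mean of 50 only through Hdac1/2 cKD, with means of 47.3, 162 and 45.4. The likeness is a description of these 9 libraries.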

How the data were processed

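Polyadenylated RNA was sequenced from 9 libraries of 60 embryos each, 3 per group. Per the submitters' processing notes, reads were counted with Salmon, normalised with DESeq2 and assigned to build GRCm38; no version or annotation is given in these sources. As signal values the authors deposited counts per gene, each divided by a DESeq2 normalisation factor. Whole reads could not be recovered, since 55.1% to 68.2% of low values per library lay near a whole step. Per the labels, spike RNA for RFP and GFP went in before extraction, but 0 entries carry these names, so total RNA per embryo was not measured. One unnamed line (under 0.00896% of a library) was left out.

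Genes that reached 10 in 3 or more libraries (13343) were fitted as log2(value + 1), which understates changes of low genes, in limma 3.58.1 under R 4.3.3, with 1 mean per group over all 9 libraries, trended and robust variances and 6 residual degrees of freedom. Two-sided p-values had Benjamini-Hochberg adjustment across the 13343 genes, and an adjusted p below 0.05 was called. The members and lists were chosen with earlier results of these data known. All 10 enzymes are named, and from each other list up to 4 genes with the lowest adjusted p in Hdac1/2 cKD, isozymes with a mean of at least 10, and for likeness the 3 closest genes. Positions, lengths and copies come from GENCODE vM21 (BLAST 2.17.0) and promoters from RefSeq. The fit was tested on simulated data. Alternatives covered the pseudocount, filter, scaling, variance model, lane, replicate block, left-out libraries and copies.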

Additional observations from a re-analysis of the deposited data

How the results depend on the processing

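Of 600 values of the 10 enzymes over 20 alternatives, 550 kept their direction and side of the threshold, 39 lost their call and 11 changed sign, none of them called. In Hdac1/2 cKD against NC, 7 of the 8 calls held in all 20 alternatives and that of Pkm was lost in 4. With 1 library left out, 7 to 8 enzymes were higher in Hdac1/2 cKD than NC, 4 to 5 higher than in Sin3a KD, and 2 to 6 higher and 1 lower in Sin3a KD than NC. In Sin3a KD against NC, 0 were higher and 0 lower with neither trend nor robust variances. The same held with NC and Sin3a KD replicates 1 (each alone on its lane) both left out. With lane as a factor 1 was higher and 0 lower. The calls over all tested genes were then 17 higher and 19 lower, 25 and 24, and 61 and 33, from 480 and 582. The last 2 settings compare the same libraries, and fewer libraries are compared. The sign of Gapdh in Sin3a KD against NC turned positive with equal totals (0.089), summed with copies (0.11), without those 2 libraries (0.00030) and in some fits with 1 library left out (-0.17 to 0.21 over all 9). In Hdac1/2 cKD against Sin3a KD, Aldoa turned positive with lane as a factor (0.18) and without Hdac1/2 cKD replicate 1 (-0.12 to 0.0030 over all 9 left-out libraries), and Gpi1 turned negative without those 2 libraries (-0.0032) and in some fits with 1 library left out (-0.019 to 0.11). The cause was not tested.

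Deviations of same-numbered libraries of different groups from their group means had correlations of -0.019 to 0.058. Those of differently numbered libraries were -0.043 to 0.033. The same-numbered pairs reached slightly higher, but all values were small, so the numbers were not taken to pair the libraries. With the replicate block, 8 enzymes were higher in Hdac1/2 cKD than NC, 6 higher and 1 lower in Sin3a KD than NC, and 5 higher in Hdac1/2 cKD than Sin3a KD, and no call changed. The estimated depth limits genes with low values most; the lowest value of the 10 enzymes in any library was 175 normalised counts (Tpi1, NC replicate 3).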
